A study of Mus musculus with 4 samples.

Results

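The 5 genes described here are the MiT/TFE transcription factors Mitf, Tfe3, Tfeb and Tfec and Gpnmb, a gene that these factors activate in several cell types. They are 5 of 16403 genes listed in at least 1 of 4 RNA-seq libraries of mouse peritoneal macrophages. The set was chosen by measured values of these libraries: Tfec for its IL-4 induction and Gpnmb for its abundance. The levels with and without IL-4 are therefore given as a description, without a test, and tests are given for the comparison of genotypes and for other genes of the pathway. Macrophages were elicited with 4% thioglycolate, collected after 4 days, left to adhere for 4 h, starved in 0.5% serum, and then either left untreated (nontreat) or given 20 ng/mL of IL-4 for 6 h. The mice, on a C57BL/6 background, were wild-type or TIF1a-KO. TIF1a is another name of Trim24, and in these mice the floxed Trim24 gene is deleted by Cre recombinase made from the LysM locus. That Cre is active mainly in myeloid cells, so Trim24 may be intact in non-myeloid cells of the preparation, which was not measured here. Wild-type littermates served as controls. Each of the 4 groups holds 1 library, so no comparison below has a replicate check, and whether a library pooled several animals is not given in the sources used here. A deletion made by a Cre in a cell population can also be incomplete.

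MiT/TFE factors are basic helix-loop-helix leucine-zipper proteins that bind DNA as homodimers or as heterodimers with each other, at E-box and M-box sequences. In fed cells the kinase mTORC1 phosphorylates TFEB, TFE3 and MITF on the lysosome surface and keeps them in the cytoplasm. On starvation or lysosomal stress they enter the nucleus and activate genes of lysosomes and autophagy, known as the CLEAR network, so their activity is set largely by localization and need not follow their mRNA. TFEC is the member with the most restricted expression and is known from macrophages, where IL-4 induces it through STAT6. GPNMB is a transmembrane glycoprotein of melanosomes and of the endosomes and lysosomes of macrophages and osteoclasts, and its shed ectodomain binds CD44 and syndecan-4.

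The libraries held between 11026033 and 11250099 reads assigned to genes. Trim24 stood at 2.55 FPKM in wild-type untreated, 1.48 in wild-type IL-4, 0.06 in knockout untreated and 0.14 in knockout IL-4 cells. FPKM is the number of fragments per kilobase of transcript scaled to library size, and allows levels of different genes to be compared. All 7 macrophage markers examined (Adgre1, Csf1r, Cd68, Itgam, Cd14, Fcgr1 and Mertk) were listed, at a summed level from 3558.59 to 3957.42 FPKM, most of it Cd68 (3004.71 to 3465.06 FPKM). Within this list Csf1r was higher and Cd14 lower with IL-4 in both genotypes, by the test described below. By the same test Fcgr1 was lower with IL-4 in knockout cells and Mertk was higher in knockout than in wild-type cells with IL-4. The Mertk result (log2 ratio 0.60) was lost with 1 FPKM added in place of 0.1 and under TMM scaling (0.58 in both). It was also lost with the trend over transcript length removed (0.54). In untreated cells the Mertk ratio was 0.39 and was not called. In the additive model described below, 1 of the 7 macrophage markers passed as higher in knockout cells. Pigment-cell targets of MITF summed to 7.35 to 10.92 FPKM, and the pigment genes Tyrp1, Dct, Mlana, Slc45a2 and Oca2 were not listed in any library. Mast cells also use MITF. The 5 of 6 mast cell markers that were listed summed to 4.58 and 3.62 FPKM in the wild-type libraries and to 8.96 and 5.54 FPKM in the knockout libraries, untreated first. Mesothelial and stromal markers (6 of 6 listed) summed to 31.94 and 26.89 FPKM in the wild-type and to 16.64 and 28.96 FPKM in the knockout libraries, untreated first. By the test described below, 3 of these 6 were lower and none higher in knockout than in wild-type untreated cells. With IL-4, 2 were higher and 1 lower. Of all tested genes, 0.742% were lower and 0.839% higher in untreated knockout cells, and 0.764% were lower and 3.05% higher with IL-4. Summed levels ran from 5.15 to 8.86 FPKM for neutrophil markers (3 of 6) and from 2.57 to 4.93 for lymphocyte markers (6 of 6). They ran from 1.06 to 2.04 for eosinophil and basophil markers (3 of 5) and from 0.75 to 1.04 for dendritic cell markers (4 of 4). The part of these cells in the results was not tested, and in such bulk samples fewer cells of a type and less RNA per cell cannot be told apart.

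The promoters of Tfec, Tfeb and Gpnmb are shown because Tfec had the largest ratio between IL-4 and untreated cells, because one Tfeb start carries the same type of motif, and because Gpnmb is the target named with the family. Each stretch holds 250 bases before and 50 bases after an annotated RefSeq start (GRCm38.p6) and reads 5′ to 3′ on the strand of the gene. Capitals mark a match to TTCNNNNGAA, the palindrome with 4 free bases that STAT6 prefers, in Tfec and Tfeb, and to TGANTCA, the AP-1 motif, in Gpnmb. Tfec lies at chr6:16898392-16898691 on the minus strand, the Tfeb start at chr17:47785494-47785793 on the plus strand and Gpnmb at chr6:49036268-49036567 on the plus strand.
Tfec: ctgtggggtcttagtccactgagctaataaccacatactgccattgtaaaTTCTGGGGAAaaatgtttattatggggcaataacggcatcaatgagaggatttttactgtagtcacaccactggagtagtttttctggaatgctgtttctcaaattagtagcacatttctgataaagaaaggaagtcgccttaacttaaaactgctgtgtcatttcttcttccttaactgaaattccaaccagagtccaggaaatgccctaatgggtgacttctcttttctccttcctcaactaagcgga
Tfeb: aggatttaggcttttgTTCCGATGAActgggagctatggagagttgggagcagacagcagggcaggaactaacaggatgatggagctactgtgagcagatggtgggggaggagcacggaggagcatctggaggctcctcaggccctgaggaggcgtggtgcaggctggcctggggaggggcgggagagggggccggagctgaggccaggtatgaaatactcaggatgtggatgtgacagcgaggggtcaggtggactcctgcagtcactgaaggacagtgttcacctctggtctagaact
Gpnmb: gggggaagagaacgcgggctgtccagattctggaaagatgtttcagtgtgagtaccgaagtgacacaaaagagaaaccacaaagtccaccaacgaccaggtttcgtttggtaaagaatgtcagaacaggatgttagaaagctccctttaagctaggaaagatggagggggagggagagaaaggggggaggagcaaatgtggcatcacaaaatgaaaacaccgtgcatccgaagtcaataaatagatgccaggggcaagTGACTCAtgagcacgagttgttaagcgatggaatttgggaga
In the Tfec promoter the match TTCTGGGGAA begins at position -200 relative to the start, and in the Tfeb promoter TTCCGATGAA begins at -234. In Gpnmb the match TGACTCA begins at position 9, just inside the transcript.

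All 5 genes were found in the promoter table, with 10 annotated starts between them. Searched on both strands, the E-box CACGTG was in 7.15% of 32851 mouse promoter windows of this length, the M-box core CATGTG in 14.2%, TGANTCA in 7.81%, TTCNNNNGAA in 6.95% and TTCNNNGAA, the related STAT motif with 3 free bases, in 8.3%. Neither CACGTG nor CATGTG was in any of the 10 windows, and no motif of the 5 was in the windows of Mitf. The 1 further match was TGAATCA, which begins at position 35 from a start of Tfe3 at chrX:7763693-7763992. None of these matches is a measured binding site, and the motifs were picked with the expression values known.

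Tfec, the smallest of the 4 factor messages, stood at 6.89 FPKM in wild-type untreated and 20.48 FPKM in wild-type IL-4 cells. In knockout cells it stood at 6.54 FPKM untreated and 16.62 FPKM with IL-4. These levels rest on 135, 409, 128 and 325 reads in the same order. Both IL-4 libraries therefore lay above both untreated ones, and the level with IL-4 was 2.94 times the untreated level in wild-type cells (95% counting interval 2.42 to 3.58) and 2.52 times in knockout cells (2.05 to 3.09). On the log2 scale, with 0.1 FPKM added to every level, the ratios were 1.56 ± 0.14 and 1.33 ± 0.15, where ± is a standard error that covers counting only. Tfec moved from a level above 60.0% of listed genes to one above 80.2% in wild-type cells, and from 58.8% to 76.5% in knockout cells.

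Mitf, the founding member of the family and the regulator of pigment cells, mast cells and osteoclasts, stood at 18.29 FPKM in wild-type untreated and 26.03 FPKM in wild-type IL-4 cells. Its knockout levels were 18.95 FPKM untreated and 28.61 FPKM with IL-4, and the reads behind the 4 values were 997, 1448, 1032 and 1556. Again the 2 IL-4 libraries were the higher ones. The ratio of IL-4 to untreated was 1.42 (1.31 to 1.54) in wild-type and 1.51 (1.39 to 1.63) in knockout cells, or 0.51 ± 0.06 and 0.59 ± 0.06 on the log2 scale. Transcripts of Mitf are long, averaging 4887 bases in these files, and ratios in the wild-type IL-4 library moved with transcript length. Over all genes, the median log2 ratio of IL-4 to untreated in wild-type cells went from 0.17 in the shortest eighth of genes to -0.36 in the longest. With that trend removed, the log2 ratios of Mitf were 0.71 in wild-type and 0.63 in knockout cells.

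Tfeb, the main activator of lysosome and autophagy genes, was at 35.01 FPKM in wild-type untreated and 47.15 FPKM in wild-type IL-4 cells. Knockout cells gave 37.38 FPKM untreated and 46.82 FPKM with IL-4, from 913, 1254, 972 and 1219 reads in the 4 libraries. The 2 levels with IL-4 were close to each other and above both untreated levels, 1.35 times in wild-type and 1.25 times in knockout cells, or 0.43 ± 0.06 and 0.32 ± 0.06 on the log2 scale. Tfe3, which shares most lysosomal targets with Tfeb, was at 49.35 FPKM in wild-type untreated, 46.92 in wild-type IL-4, 45.21 in knockout untreated and 46.09 in knockout IL-4 cells. Its 1555 to 1688 reads per library varied little, and the log2 ratio of IL-4 to untreated was -0.07 ± 0.05 in wild-type and 0.03 ± 0.05 in knockout cells.

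**Figure D1:**
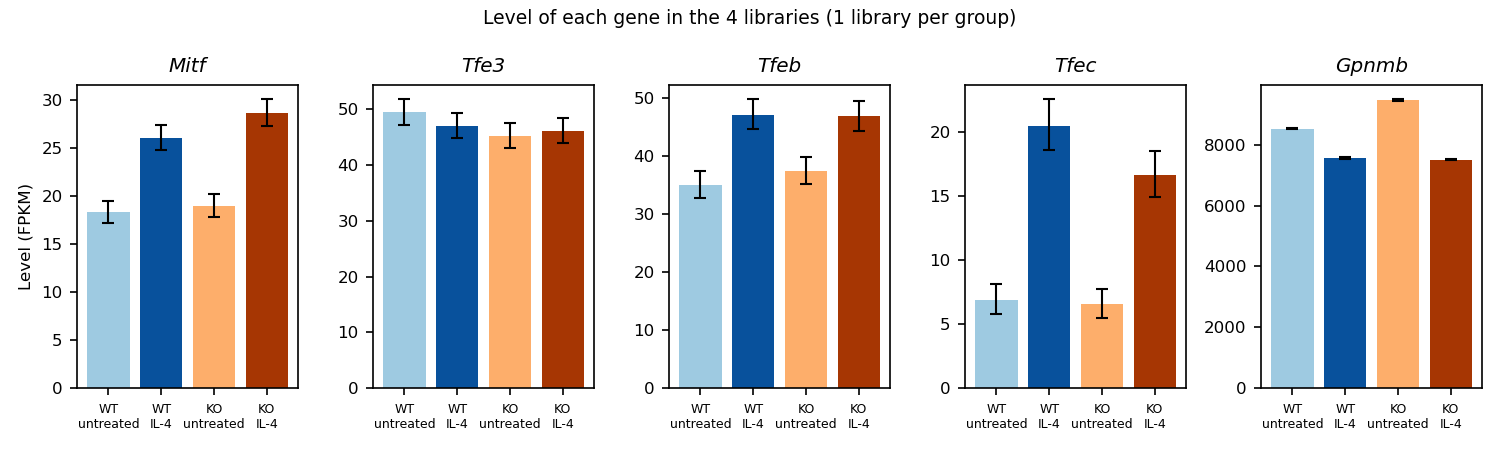
Levels of the 5 genes in FPKM (vertical axes from 0, a separate scale for each gene) in the 4 libraries, with 95% Wilson intervals that cover counting error only. The IL-4 bars of Mitf, Tfeb and Tfec stand above both untreated bars, Tfe3 stays between 45.21 and 49.35 FPKM, and the bars of Gpnmb run from 7508.78 to 9468.47 FPKM with the untreated knockout library highest.

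Summed over the 4 factors, the family stood at 109.54 FPKM in wild-type untreated, 140.58 in wild-type IL-4, 108.08 in knockout untreated and 138.14 in knockout IL-4 cells. In untreated cells Tfe3 was the largest message, with 45.1% of the sum in wild-type and 41.8% in knockout cells. Tfeb held 32.0% and 34.6%, Mitf 16.7% and 17.5%, and Tfec 6.29% and 6.05%. With IL-4 the share of Tfe3 was 33.4% in both genotypes and that of Tfeb was 33.5% and 33.9%, so the order of the 2 largest factors was a near tie, with FPKM values of 46.92 against 47.15 in wild-type and 46.09 against 46.82 in knockout cells. Tfec reached 14.6% in wild-type and 12.0% in knockout cells, and Mitf 18.5% and 20.7%. These shares are not corrected for the trend over transcript length. With that trend removed, the knockout to wild-type log2 ratio of Mitf with IL-4 went from 0.14 to -0.04. The factors were thus ordered Tfe3, Tfeb, Mitf and Tfec when untreated, and Tfec remained the smallest in all 4 libraries.

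**Figure D2:**
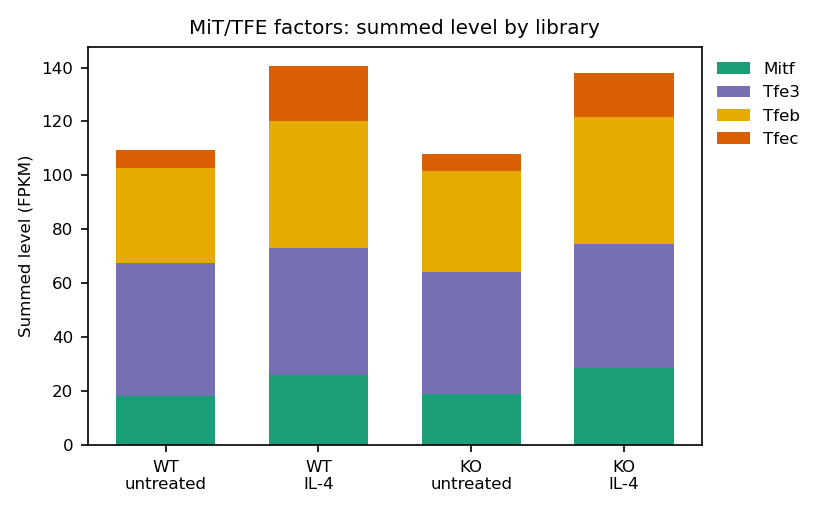
Summed level of Mitf, Tfe3, Tfeb and Tfec in FPKM (vertical axis from 0), stacked by factor, in each of the 4 libraries. The columns with IL-4 are the taller ones, at 140.58 and 138.14 FPKM, the Tfe3 layer hardly changes in height, and the Tfec layer is the thinnest in every column.

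Gpnmb was of another order of abundance than the factors. It stood at 8525.91 FPKM in wild-type untreated, 7558.54 in wild-type IL-4, 9468.47 in knockout untreated and 7508.78 in knockout IL-4 cells. More reads fell on it than on any other gene in each library, 360385, 325886, 399864 and 316930 of them, which is 3.27%, 2.90%, 3.63% and 2.87% of all reads. Corrected for length it was not the most abundant gene. By FPKM it ranked 6th in both wild-type and 5th in both knockout libraries, behind the ferritin genes Fth1 and Ftl1 and the lysosomal genes Ctsd and Psap, and in wild-type cells also behind lysozyme (Lyz2). Its IL-4 libraries were the lower ones in both genotypes, at 0.887 times the untreated level in wild-type and 0.793 times in knockout cells (log2 ratios of -0.17 and -0.33). Gpnmb therefore stood in the opposite order to Mitf, Tfeb and Tfec, and its level per unit of summed factor level was 77.8 in wild-type untreated, 53.8 in wild-type IL-4, 87.6 in knockout untreated and 54.4 in knockout IL-4 cells. Without the length trend the log2 ratio was -0.09 in wild-type and -0.33 in knockout cells.

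To ask whether loss of Trim24 went with other levels of the family, the knockout was compared with the wild-type library at the same treatment. Each pair was tested with a two-sided Fisher exact test on reads, adjusted over all genes with a read by the Benjamini-Hochberg method, and genes are referred to as called where the adjusted p was below 0.05 and the fold exceeded 1.5. This test compares 2 libraries, not 2 conditions. None of the 5 genes was called in either pair, where the background was 0.839% of all tested genes higher and 0.742% lower in knockout cells when untreated, and 3.05% higher and 0.764% lower with IL-4. With the length trend described above removed, the 475 higher and 119 lower genes behind the last pair of shares became 217 and 98.

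Without IL-4, knockout over wild-type gave a log2 ratio of 0.05 ± 0.06 for Mitf (Fisher exact test, adjusted p = 0.851), -0.13 ± 0.05 for Tfe3 (0.179), 0.09 ± 0.07 for Tfeb (0.598) and -0.07 ± 0.18 for Tfec (0.968). Gpnmb was 1.11 times as high in knockout as in wild-type cells, a log2 ratio of 0.15 with a counting interval of 0.14 to 0.16, which is narrow because of the number of reads on the gene and which leaves out the spread between animals. With IL-4 the log2 ratio was 0.14 ± 0.05 for Mitf (Fisher exact test, adjusted p = 0.0574), -0.03 ± 0.05 for Tfe3 (0.757), -0.01 ± 0.06 for Tfeb (0.993) and -0.01 for Gpnmb (0.0111). Tfec with IL-4 stood at 0.812 times the wild-type level in knockout cells (0.702 to 0.940), or -0.30 ± 0.11 on the log2 scale, with an adjusted p of 0.0285 by the Fisher exact test and a fold below the threshold. The knockout IL-4 to wild-type IL-4 ratio also moved with transcript length, from a median of -0.17 in the shortest to 0.34 in the longest eighth of genes, and with this trend removed Mitf stood at -0.04, Tfeb at 0.03 and Tfec at -0.22.

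**Figure D3:**
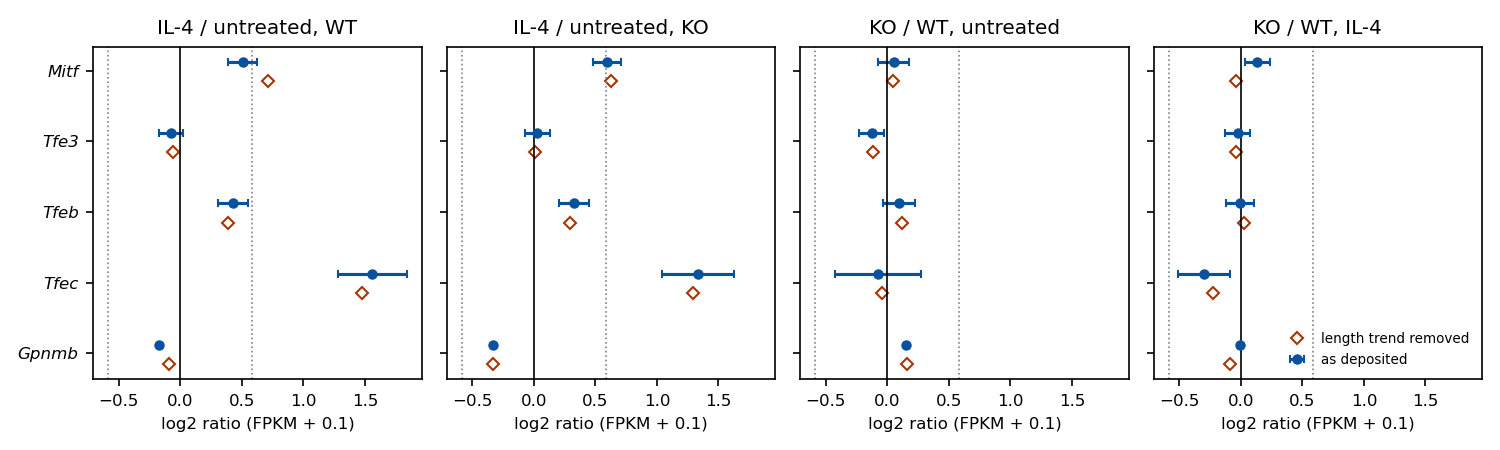
Log2 ratios of the 5 genes (horizontal axes, FPKM with 0.1 added) in the 4 pairs of libraries, as deposited with 95% counting intervals (filled circles) and with the trend over transcript length removed (open diamonds). Dotted lines mark a fold of 1.5, and the intervals of Gpnmb are narrower than the symbols. Tfec lies beyond the line in both IL-4 panels, Mitf lies just beyond it in knockout cells and, with the length trend removed, in both genotypes, and no gene reaches it in the genotype panels.

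The response to IL-4 was also compared between genotypes, gene by gene, as the log2 ratio in knockout minus that in wild-type cells. The difference was -0.23 for Tfec (95% counting interval -0.63 to 0.18), 0.08 for Mitf (-0.08 to 0.25), -0.10 for Tfeb (-0.28 to 0.07) and 0.10 for Tfe3 (-0.04 to 0.24), so counting error alone spans 0 for each factor. For Gpnmb it was -0.16 (-0.17 to -0.15), and this interval covers counting only. In an additive model of genotype and treatment over all 4 libraries (edgeR quasi-likelihood test, 1 residual degree of freedom) 1.66% of genes passed an adjusted p of 0.05 for genotype. None of the 5 genes was among them, and none had an unadjusted p under 0.05. With DESeq2 none passed either, adjusted or unadjusted. Both fits count any genotype difference in the IL-4 response as spread, so a gene that did not pass need not have equal levels in both genotypes. The log2 effect of the knockout was -0.22 for Tfec (edgeR, adjusted p = 0.472), 0.09 for Mitf (0.700), -0.07 for Tfe3 (0.768), 0.04 for Tfeb (0.899) and 0.07 for Gpnmb (0.835).

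Proteins that decide where MiT/TFE factors reside were examined as a group of 26 regulators, which includes mTORC1, the Rag GTPases and their Ragulator anchor, folliculin with its partners and calcineurin. The share of all tested genes that were higher with IL-4 was 4.91% in wild-type and 5.29% in knockout cells, and the share that were lower was 7.88% and 4.03%. In wild-type cells this balance moved with transcript length, from 766 higher and 1228 lower to 808 and 816 with the length trend removed. The shares over all tested genes are the background for every list below. All lists were drawn up with earlier results of these data known. Of the 26 regulators 2 were called higher and 2 lower in wild-type cells, and 1 higher and 1 lower in knockout cells, with median log2 ratios of -0.08 and -0.05 beside -0.03 and 0.00 over all tested genes. Fnip2, a partner of folliculin, was at 83.81 FPKM in wild-type untreated, 34.45 in wild-type IL-4, 87.40 in knockout untreated and 43.96 in knockout IL-4 cells, and fell in both genotypes by log2 ratios of -1.28 ± 0.03 and -0.99 ± 0.03. Its knockout to wild-type ratio with IL-4 was 0.35 ± 0.04 on the log2 scale and 0.03 with the length trend removed. Ppp3r1, the regulatory subunit of calcineurin, the phosphatase that dephosphorylates TFEB, was at 48.63, 85.04, 45.36 and 77.84 FPKM in the same order and rose in both, by 0.81 ± 0.05 and 0.78 ± 0.05 (Fisher exact test, adjusted p = 1.7e-69 and 3.6e-59).

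The other calls among the regulators were made in 1 genotype and depended on the setting. Slc38a9, the lysosomal arginine sensor, was at 2.85, 4.45, 3.57 and 5.08 FPKM, and its log2 ratio with IL-4 was 0.63 ± 0.11 in wild-type, which was called, and 0.50 ± 0.10 in knockout cells, which was not. Its knockout ratio was called with the length trend removed (0.63), and its wild-type ratio was not called with 1 FPKM added in place of 0.1 (0.50). Mtor, the kinase of mTORC1, was at 6.76 FPKM in wild-type untreated, 4.06 in wild-type IL-4, 6.70 in knockout untreated and 6.35 in knockout IL-4 cells. It was called lower with IL-4 in wild-type cells (-0.72 ± 0.09) and higher in knockout than in wild-type cells with IL-4 (0.63 ± 0.09), but its messages are long, at 8612 bases, and with the length trend removed these ratios were -0.26 and 0.23 and neither was called. Flcn (folliculin) at 27.19 to 33.54 FPKM, Rragd, the Rag GTPase that MiT/TFE factors themselves induce, at 8.66 to 11.68 FPKM and Tsc1, an inhibitor of mTORC1, at 8.35 to 12.23 FPKM were not called in any pair.

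Lysosomal genes of the CLEAR network, the best known targets of Tfeb and Tfe3, stayed near the background. Of 34 genes 1 was called higher and none lower with IL-4 in either genotype, with median log2 ratios of 0.01 and -0.03. Lamp1, the abundant glycoprotein of the lysosome membrane, was at 2173.87 FPKM in wild-type untreated, 2205.76 in wild-type IL-4, 2123.16 in knockout untreated and 2080.06 in knockout IL-4 cells. Mcoln1, the lysosomal calcium channel that activates calcineurin, was at 61.15, 55.90, 59.34 and 56.52 FPKM. Neither was called in any pair.

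Subunits of the vacuolar proton pump, which acidifies the lysosome and is part of the same network, gave 3 of 15 called higher in wild-type and 2 of 15 in knockout cells, and none lower, with medians of 0.18 and 0.17. The shares of all tested genes called higher were 4.91% and 5.29%. Removing the length trend brought the wild-type median to 0.03 and left 3 genes called. Atp6v0a1 had the largest ratios, at 142.44 FPKM in wild-type untreated, 415.04 in wild-type IL-4, 138.31 in knockout untreated and 394.82 in knockout IL-4 cells (1.54 ± 0.02 and 1.51 ± 0.02). Atp6v0d2, the isoform of macrophages and osteoclasts, was at 548.42, 978.37, 613.67 and 1030.53 FPKM and rose in both genotypes, by 0.83 ± 0.01 and 0.75 ± 0.01. Atp6v1b2, at 357.60, 579.54, 375.27 and 561.52 FPKM, was called in wild-type cells at 1.62-fold and narrowly missed the fold threshold in knockout cells. Atp6v1h, which joins the pump to its membrane sector, was at 81.52, 116.47, 75.97 and 93.43 FPKM and was not called. In the additive model, in which 25.3% of all genes passed for IL-4, 7 of the 15 pump genes were higher with IL-4 and none lower, against 4 higher and 4 lower of the 34 lysosomal genes.

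**Figure D4:**
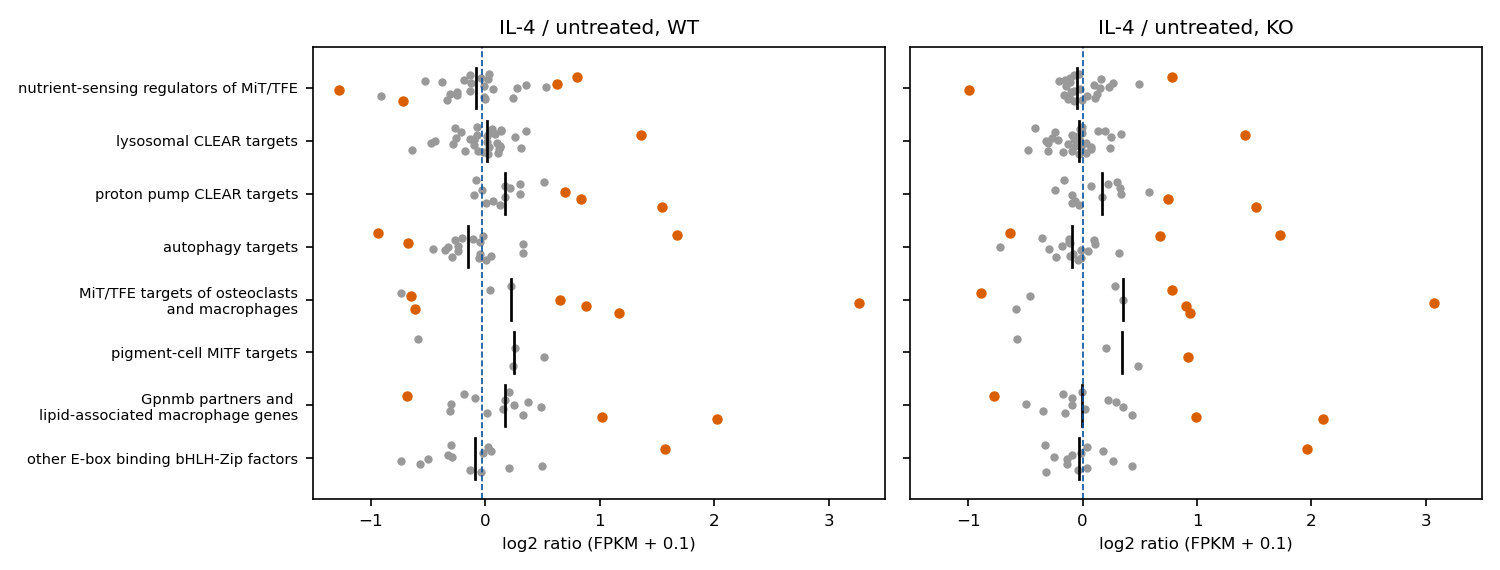
Log2 ratio of IL-4 to untreated (horizontal axes, FPKM with 0.1 added) of each gene of 8 lists, in wild-type (left) and knockout cells (right). Orange points were called, grey points were not, black bars are list medians and the dashed line is the median of all tested genes. Most lysosomal genes lie around the dashed line, whereas 3 pump genes in wild-type and 2 in knockout cells stand out to the right.

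Autophagy targets had 1 of 20 called higher and 2 lower in wild-type cells, and 2 higher and 1 lower in knockout cells, with medians of -0.15 and -0.10. Nrbf2, a subunit of the autophagy lipid kinase complex, rose in both genotypes from 17.87 to 57.15 FPKM in wild-type and from 15.91 to 52.68 FPKM in knockout cells (1.67 ± 0.09 and 1.72 ± 0.09). Tecpr1, which tethers autophagosomes to lysosomes, fell in both, from 71.58 to 37.45 FPKM and from 78.18 to 50.34 FPKM (-0.93 ± 0.04 and -0.63 ± 0.04). Ulk1, the kinase that starts autophagy, was at 9.92, 6.18, 9.56 and 8.86 FPKM and was called lower in wild-type cells, a call that was lost with the length trend removed. The autophagy receptor Sqstm1 was at 332.61, 334.67, 286.69 and 278.16 FPKM and was not called. The other call with IL-4 was Bcl2 in knockout cells, from 0.96 to 1.59 FPKM, and Atg9b at 1.15 FPKM in wild-type IL-4 and 0.53 FPKM in knockout IL-4 cells was the 1 autophagy gene called between genotypes.

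Targets known from osteoclasts and macrophages, where Mitf, Tfe3 and Tfec act, were 9 listed of 10, the receptor Oscar being the gene not listed. With IL-4 4 of the 9 were called higher and 2 lower in wild-type cells, and 4 higher and 1 lower in knockout cells. Of all tested genes, 4.91% were called higher and 7.88% lower in wild-type cells, and 5.29% higher and 4.03% lower in knockout cells. The list was drawn up with earlier results of these data known, so the counts are a description. Csf3r, the G-CSF receptor and the best known target of Tfec, was at 41.25 FPKM in wild-type untreated, 76.00 in wild-type IL-4, 40.82 in knockout untreated and 76.30 in knockout IL-4 cells (0.88 ± 0.04 and 0.90 ± 0.04). Acp5, the tartrate-resistant acid phosphatase, was at 86.51, 194.95, 114.52 and 219.28 FPKM (1.17 ± 0.05 and 0.94 ± 0.04). Both therefore had their 2 highest values in the IL-4 libraries, as Tfec did. So did many other genes, and a link to Tfec was not tested. Ocstamp, a fusion protein of osteoclasts, was listed with 19 reads in wild-type IL-4 and 16 reads in knockout IL-4 cells and not listed in the untreated libraries.

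Other genes of this group moved otherwise. Ctsk, the collagen-degrading cathepsin K, was at 309.12 FPKM in wild-type untreated, 201.40 in wild-type IL-4, 364.17 in knockout untreated and 243.35 in knockout IL-4 cells, and its log2 ratio with IL-4 was -0.62 ± 0.03 in wild-type, called but not under TMM scaling, and -0.58 ± 0.03 in knockout cells, just short of the fold threshold. Tnfrsf11a, the receptor RANK, was at 6.00, 3.79, 6.30 and 4.56 FPKM and was called lower in wild-type cells, though not with the length trend removed (-0.43). Dcstamp, at 1.79, 2.87, 2.48 and 3.20 FPKM, was called higher in wild-type cells with an adjusted p of 0.049 by the Fisher exact test, and was not called with the length trend removed (0.58) or with 1 FPKM added (0.47). Met rose from 3.57 to 6.20 FPKM in knockout cells and stood at 4.76 and 4.89 FPKM in wild-type cells. Ppargc1a was called lower in knockout cells, from 0.49 to 0.22 FPKM, and stood at 0.35 and 0.17 FPKM in wild-type cells, with log2 ratios of -0.88 and -0.74 on 12 to 35 reads.

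**Figure D5:**
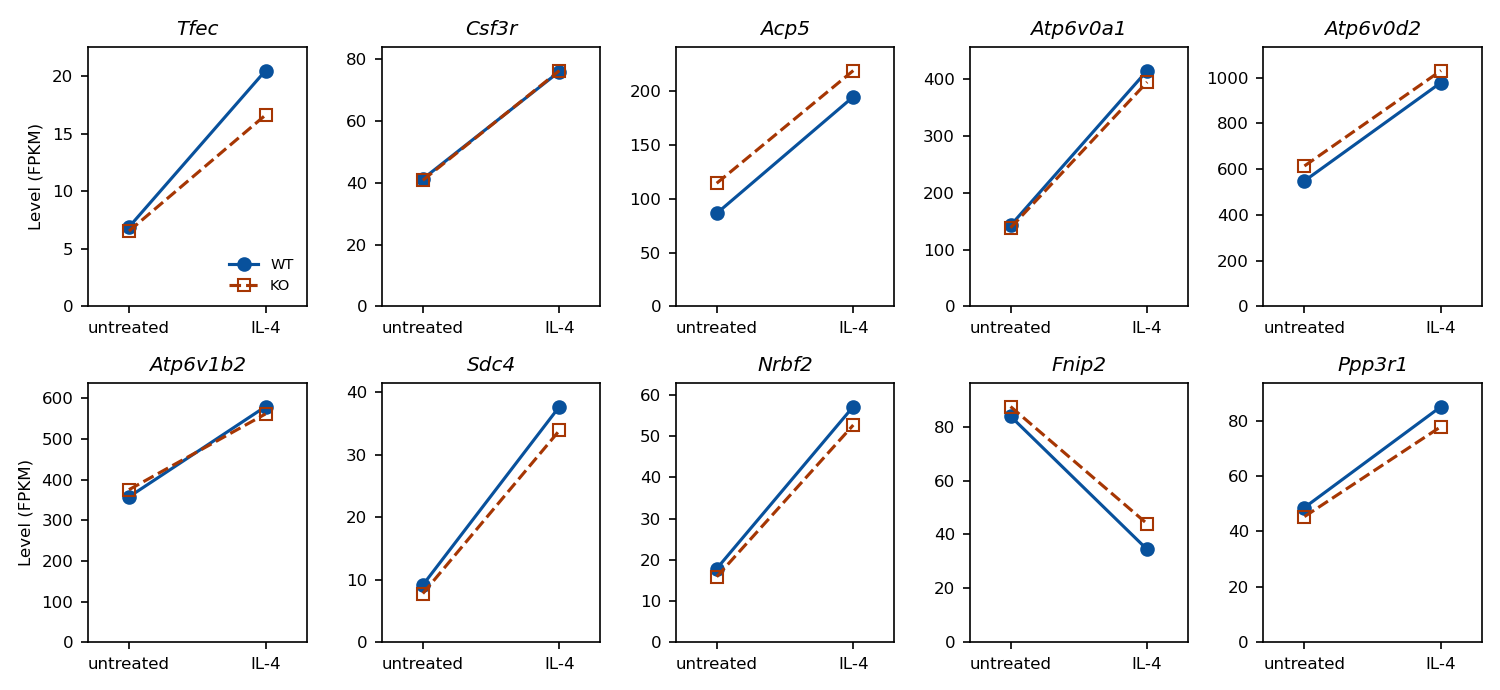
Levels in FPKM (vertical axes from 0, a separate scale for each gene) of Tfec and of 9 genes of the pathway lists, untreated and with IL-4, in the wild-type (filled circles) and knockout (open squares) libraries, 1 library per point. Lines of both genotypes climb for every gene shown except Fnip2, which falls. The 9 genes are a selection and do not stand for their lists. Tecpr1, Lpl, Ctsk and Tnfrsf11a, which are not shown, were lower with IL-4 in both genotypes.

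Of 9 pigment-cell targets of MITF 4 were listed. Pmel, the fibril protein of melanosomes and a relative of Gpnmb, was at 0.34, 0.42, 0.43 and 0.64 FPKM and was not called. Tyr, the pigment enzyme tyrosinase, was at 3.70 FPKM in wild-type untreated, 5.33 in wild-type IL-4, 3.95 in knockout untreated and 7.55 in knockout IL-4 cells, and its log2 ratio with IL-4 was 0.51 ± 0.12 in wild-type and 0.92 ± 0.11 in knockout cells, the second of which was called. With the length trend removed the wild-type ratio was 0.81 and was called as well. Rab27a, which moves melanosomes and secretory lysosomes, was at 3.26, 2.14, 4.03 and 2.68 FPKM and was not called.

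Among 15 partners of Gpnmb and genes of lipid-associated macrophages 2 rose and 1 fell with IL-4 in each genotype by this test. The medians were 0.17 in wild-type and -0.01 in knockout cells. With the length trend removed, the middle values were 0.03 (Spp1) in wild-type and -0.04 (Plin2) in knockout cells. The 2 called higher were the known binding partners of the Gpnmb ectodomain. Sdc4 (syndecan-4) was at 9.16 FPKM in wild-type untreated, 37.65 in wild-type IL-4, 7.80 in knockout untreated and 33.84 in knockout IL-4 cells (2.03 ± 0.10 and 2.10 ± 0.11). Cd44, the hyaluronan receptor, was at 56.00, 113.48, 55.77 and 111.13 FPKM (1.02 ± 0.03 and 0.99 ± 0.03). Lpl, lipoprotein lipase, was at 342.09, 212.52, 486.64 and 285.36 FPKM, fell with IL-4 in both genotypes, though removing the length trend ended its call in wild-type cells (-0.58), and had its highest value in untreated knockout cells, as Gpnmb had. Lpl was the 1 gene of these 15 that passed for genotype in the additive model (edgeR, adjusted p = 0.0133). Lgals3 (galectin-3) at 4643.54 to 6587.84 FPKM and Spp1 (osteopontin) at 958.05 to 1176.10 FPKM were not called.

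Other bHLH leucine-zipper factors that bind E-boxes had 1 of 14 called higher with IL-4 and none lower in each genotype. The gene called was Myc, at 3.84 FPKM in wild-type untreated, 11.57 in wild-type IL-4, 2.26 in knockout untreated and 9.10 in knockout IL-4 cells (1.57 ± 0.16 and 1.96 ± 0.21), and it was also called lower in knockout than in wild-type untreated cells (-0.74 ± 0.23), though not with 1 FPKM added in place of 0.1. Mlx, a partner of glucose-sensing factors, was at 20.71, 29.28, 20.48 and 27.63 FPKM and Usf1 at 32.25, 31.43, 32.52 and 26.08 FPKM, and neither was called. Mlxip, at 16.52, 11.09, 18.68 and 17.00 FPKM, was called higher in knockout than in wild-type cells with IL-4 (0.61 ± 0.06), and the ratio was 0.28 and not called with the length trend removed.

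Between genotypes few genes of these lists were called. In untreated cells none of the regulators, lysosomal, pump, autophagy, osteoclast, pigment or Gpnmb partner genes was called. With IL-4 the calls among these lists were Mtor among the regulators and Atg9b among the autophagy targets, and neither remained with 1 FPKM added in place of 0.1. The list medians with IL-4 were 0.02 for the regulators, -0.03 for lysosomal, -0.07 for pump and -0.02 for autophagy genes, beside 0.02 over all tested genes. They were farther from it for the smaller lists. These medians were 0.17 for the 9 osteoclast and macrophage targets, 0.40 for the 4 pigment-cell targets and -0.10 for the 15 Gpnmb partners. With the length trend removed, the middle value of the osteoclast and macrophage targets was 0.04 (Met). That of the Gpnmb partners was then -0.004 (Fabp5). The 4 pigment-cell ratios then ran from -0.50 (Trpm1, on 3 and 5 reads) to 0.56 (Pmel).

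Genes of like pattern were sought by the root-mean-square difference of log2 levels over the 4 libraries, each gene centred on its own mean, among the 7456 genes that averaged 5 FPKM or more. Tfec had 1 gene within a difference of 0.05, Prps1, an enzyme of nucleotide synthesis, at 6.95 FPKM in wild-type untreated, 19.47 in wild-type IL-4, 6.55 in knockout untreated and 16.44 in knockout IL-4 cells (0.0328). The next were Nek6, a mitotic kinase (0.0558), and Ap2m1, an adaptor of clathrin-coated pits (0.0659). Mitf had 36 genes within 0.05, the closest being Dnajb5 and Niban2 (both 0.0160) and Nmi (0.0207). Tfeb had 80, Gpnmb 91 and Tfe3 387 such genes, so their patterns were shared by many genes. The difference is not scaled to the size of a response, and Tfec was chosen for its response to IL-4. These counts therefore do not rank how distinctive the patterns are. Counting errors of the Tfec log2 ratios, 0.11 to 0.18, were also larger than the limit of 0.05.

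Trim24, Tfec, Gpnmb and Mitf are on mouse chromosome 6. In GRCm38 Tfec spans 16830927 to 16898464, Gpnmb 49036518 to 49058182 and Mitf 97807002 to 98021360, and they lie 21.0, 11.2 and 59.9 Mb from Trim24. Tfeb is on chromosome 17 (47737037 to 47792416) and Tfe3 on chromosome X (7762530 to 7775202).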

How the data were processed

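Per the labels, a service provider sequenced total RNA on a HiSeq instrument. The authors aligned reads to GRCm38 (mm10) by Bowtie and summarised them per gene by RSEM; versions are not given in the sources used here. The deposited expected count is the RSEM estimate of reads per gene and need not be whole. The deposited FPKM is normalised for transcript length and library total. Deposited lengths, in bases, gave the length trend. Genes not listed were set to 0. Of 16403 gene IDs, 16365 matched an NCBI symbol.

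Members and gene lists were chosen with earlier results of these data known. Expected counts were rounded. Pairs of libraries were compared by a two-sided Fisher exact test (scipy 1.17.1), Benjamini-Hochberg adjusted over genes with a read in the pair, with log2(FPKM + 0.1) ratios; added constants shrink the ratios of low genes. The additive fit used edgeR 4.0.16 (TMM, filterByExpr). The length trend was a lowess curve (fraction 0.3, genes of 200 bases and 1 FPKM or more). From each list at most the 4 genes with the largest mean IL-4 ratio and the 2 with the largest mean genotype ratio were named, at a mean of 1 FPKM or more, plus Pmel, Csf3r, Acp5, Ctsk, Atp6v0d2, Flcn, Fnip2, Rragd, Sqstm1 and Usf1; other genes, such as Lamp1, Mcoln1 and further called genes, were named after their values were seen, and some lysosomal genes are not reported here. Alternatives changed the scaling, pseudocount, fold, test and an assumed biological spread. Scripts were tested on simulated data. Intervals and errors cover counting only, at 11026033 to 11250099 reads per library.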

Additional observations from a re-analysis of the deposited data

Results flagged for a closer look

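Several genes had log2 ratios of opposite sign in the 2 pairs of one contrast. With 1 library per group these differences were not tested against any spread between animals. The response of Tfe3 to IL-4 was -0.07 in wild-type and 0.03 in knockout cells (counting errors of 0.05 each). For the ratio of knockout to wild-type, Tfeb gave 0.09 untreated and -0.01 with IL-4, and Gpnmb gave 0.15 and -0.01. Mtor gave -0.01 untreated and 0.63 with IL-4.

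Among markers of other cells, the mast cell chymase Cma1 responded to IL-4 by 0.46 in wild-type and -1.43 in knockout cells, on 9 to 37 reads per library. Other mast cell markers did not share this pattern: Cpa3 gave -0.34 and -0.15 and Tpsb2 -0.65 and -0.66. Cpa3 was called higher in knockout than in wild-type cells with IL-4 (1.21). In untreated cells all 4 tested mast cell markers were higher in knockout than in wild-type. That ratio was 1.91 for Cma1, which was called, and 1.02 for Cpa3 and 0.29 for Tpsb2, which were not. The collagen gene Col1a1, a stromal marker, responded by -0.36 in wild-type and 1.66 in knockout cells, and its ratio of knockout to wild-type was -1.16 untreated and 0.85 with IL-4. With IL-4, knockout to wild-type was -0.60 for Dcn, -0.20 for Pdgfra, -0.83 for Upk3b and 1.85 for Msln, another marker on few reads. Dcn was called lower in knockout cells at both treatments and passed for genotype in the additive fit (edgeR, adjusted p = 0.00727). Its call with IL-4 was lost with 1 FPKM added in place of 0.1 (-0.55) and with the length trend removed (-0.53).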

How the results depend on the processing

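No paired analysis was possible because each group holds 1 library and the labels give no replicate numbers. For the same reason no library was left out. Counting error is the only measured error; the spread between animals is unknown, and assumed spreads show how far the counts of calls rest on it. Where a value moved, the cause was not tested unless the setting itself uses fewer genes or a stricter threshold.

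With IL-4 in wild-type cells 1994 genes were called. The number was 861 with a fold above 2, 3960 with the fold alone, and 1321, 258 and 45 when a biological coefficient of variation of 0.1, 0.2 or 0.4 was assumed. For IL-4 in knockout cells the 1466 calls became 711, 3452, 970, 272 and 33 in the same order. Between untreated genotypes the 247 calls became 128, 2216, 68, 15 and 7, and 156 with a pseudocount of 1. Between genotypes with IL-4 the 594 calls became 171, 2529, 120, 21 and 11, and 322 with a pseudocount of 1 and 315 with the length trend removed.

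In the additive fit 2987 genes passed for IL-4, against 1675 when all genes with a read were kept and 1223 with DESeq2. For genotype 196 passed, against 494 with upper-quartile scaling, 24 with all genes with a read, 624 with the length trend as an offset, 65 with DESeq2 and 393 with limma on log2(FPKM + 0.1). None of the 5 genes passed for genotype in any of these fits. All of them share the additive design, which counts a genotype difference in the IL-4 response as spread.

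Of the 5 genes, Mitf reversed between genotypes with IL-4 (-0.0387) and Tfeb did too (0.0291) with the length trend removed, and the additive genotype effect of Mitf was -0.00099 with the length trend as an offset. Gpnmb with IL-4 in wild-type cells was -0.14 under TMM scaling and -0.09 with the length trend removed. The difference of the IL-4 responses was then -0.08 for Mitf and -0.24 for Gpnmb. The alternatives for these differences and for the additive effects of the 5 genes were chosen after seeing the data.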
